A study of Mus musculus with 4 samples.

Results

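The transcripts of 8 mouse genes of red blood cell formation were measured by RNA sequencing in the brain and spine of embryos with and without neural tube defects. The genes are the transcription factors Gata1, Klf1, Tal1 and Nfe2, the erythropoietin receptor Epor, the haem synthesis enzyme Alas2, the red cell membrane protein Slc4a1 and the transferrin receptor Tfrc. They were chosen as a list of names, with no threshold on a value, but with earlier results of these data known. All 8 were found by Ensembl identifier among the 28765 genes measured. The study had 4 libraries of total RNA from embryonic day 9.5 CD-1 mice, 1 each for control brain, brain with neural tube defects (NTD brain), control spine and spine with neural tube defects (NTD spine). The treatment label of the NTD libraries was folate deficiency with neural tube defects. The protocol given for the series described parents fed a low-folate diet for over 8 weeks and an intraperitoneal injection of 1.5 mg/kg MTX on embryonic day 7.5, and NTD embryos were picked under a microscope by phenotype. The same protocol text stood with the control libraries, whose treatment label was control, and whether control mothers received the diet or the injection was not given in the sources used here. The number of embryos behind each library was not given either. With 1 library per group there was no replicate check and no test, so every difference below describes these libraries, and its 95% interval covers the counting error of the reads only.

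Red blood cells of the mouse embryo at this stage are mostly primitive erythroblasts, made in the yolk sac and carried by the circulation while they still have nuclei and still transcribe globin genes. GATA1 and TAL1 work in shared complexes that switch on erythroid genes, KLF1 binds CACCC elements in globin, membrane and haem genes, and NFE2 binds the globin control regions with small MAF partners. EPOR carries the survival signal of erythropoietin, ALAS2 is the rate-limiting enzyme of erythroid haem synthesis, SLC4A1 (band 3) is the anion exchanger that anchors the red cell skeleton, and TFRC takes up transferrin-bound iron. TFRC is not restricted to blood, since dividing cells of most tissues use it.

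Of the 7 genes that were highest in control spine, upstream sequences are shown for Klf1, Epor and Alas2. Tfrc, which was highest in NTD brain, is shown beside them. RefSeq promoter entries (GRCm38.p6) were matched for 6 of the 8 genes, all but Nfe2 and Slc4a1, and the 250 bases before each start were searched on both strands (Tal1 and Tfrc have 2 entries each, and a match in either counted). GATA motifs were searched as AGATAA, with T also allowed as the first letter and G as the last. The KLF1-type CACCC motif was searched as CCNCACCC, and the NF-E2 motif as TGANTCA with C or G at the N. The windows below are read 5′ to 3′ on the gene's strand and end before the first annotated exon, and capitals mark a GATA or CACCC match in either orientation. They lie at chr8:84901822-84901927 (Klf1, plus strand), chr9:21963577-21963736 (Epor, minus strand), chrX:150547257-150547374 (Alas2, plus strand) and chr16:32608736-32608895 (Tfrc, plus strand).
Klf1: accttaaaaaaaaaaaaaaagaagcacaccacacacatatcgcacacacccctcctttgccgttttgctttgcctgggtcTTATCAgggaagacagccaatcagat
Epor: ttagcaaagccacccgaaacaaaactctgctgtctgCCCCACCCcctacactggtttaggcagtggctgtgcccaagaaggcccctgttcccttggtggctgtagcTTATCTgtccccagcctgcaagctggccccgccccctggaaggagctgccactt
Alas2: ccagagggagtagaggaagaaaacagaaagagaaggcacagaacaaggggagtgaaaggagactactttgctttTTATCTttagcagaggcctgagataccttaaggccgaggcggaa
Tfrc: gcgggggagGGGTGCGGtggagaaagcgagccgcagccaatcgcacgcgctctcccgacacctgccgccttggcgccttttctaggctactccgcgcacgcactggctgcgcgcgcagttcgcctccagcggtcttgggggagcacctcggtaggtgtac
A GATA match was present upstream of 4 of the 6 genes, against 26.5% of 32851 promoters of the same length. It lay at position -86 from the start in Alas2, -80 in Klf1, -54 in Epor and -205 in the first entry of Tal1. A CACCC match was present in 4 of the 6 as well, against 14.9% of promoters. The positions were -124 in Epor, -55 in Gata1, -151 and -186 in the 2 entries of Tfrc, and the overlapping -40 and -35 in Alas2. Both shares count single entries, while Tal1 and Tfrc each had 2 in which a match could fall. The Alas2 CACCC matches lay past the window shown, in the first exon of the GENCODE annotation. The NF-E2 motif was found in 0 of the 6 windows and in 4.46% of all promoters. GATA and CACCC matches shared no bases with each other, and Epor and Alas2 held both. Gata1 and Tfrc had no GATA match, and Klf1 and Tal1 had no CACCC match. Binding was not measured, and any part of the motifs in the levels below was not tested.

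A second kind of sequence, the iron-responsive element, is shown because it is present in the transcripts of Alas2 and Tfrc and is known to act in opposite ways there. It is a hairpin with a CAGTGN loop that iron regulatory proteins bind when iron is scarce, which blocks translation from a 5′ UTR and protects the transcript from decay in the Tfrc 3′ UTR. The search required a C, 5 bases, CAGTGN and 5 bases that pair with the first 5, on the transcript strand. It covered the longest GENCODE protein-coding transcript of each gene, coding sequence included, and the UTR labels below were assigned afterwards. Capitals mark the loop, and T stands for U.
Alas2 5′ UTR: gttcgtcctCAGTGCagggcaac
Tfrc 3′ UTR element a: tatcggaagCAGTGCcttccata
Tfrc 3′ UTR element b: tatcgggagCAGTGTcttccata
Tfrc 3′ UTR element c: tatcggagaCAGTGAtctccata
Tfrc 3′ UTR element d: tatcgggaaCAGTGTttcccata
Fth1 5′ UTR: ctgcttcaaCAGTGCttgaacgg
The Alas2 element lay at chrX:150547461-150547483 and the Tfrc elements between chr16:32631222-32631244 and chr16:32631713-32631735, all on the plus strand of GRCm38. Fth1, the ferritin heavy chain that stores iron, carried its element at chr19:9982735-9982757. Of 21901 protein-coding genes, 272 (1.24%) held at least 1 such match anywhere in the transcript searched, and Tfrc was the 1 gene with 3 or more. The libraries measured transcript levels and not the binding of iron regulatory proteins or translation.

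Levels are FPKM values, which scale fragments to exon length and library depth, and the library totals recovered from them ran from 16272101 to 16911677 reads. The labels of region held in broad terms: the forebrain and midbrain gene Otx2 was at 27.1 and 28.7 FPKM in control and NTD brain and at 2.21 and 0.457 FPKM in control and NTD spine, while Hoxb9 of the trunk was at 0.0919, 4.18, 47.5 and 52.9 FPKM in the same order. Libraries of both regions also held transcripts of other tissues, and NTD brain was above control brain in Hoxb9 and in heart genes. Summed over 6 genes of yolk sac endoderm and gut, such as Afp, the level was 143 FPKM in control spine, 46.3 in NTD spine, 2.10 in control brain and 1.85 in NTD brain, where Afp was listed at 0 in control brain. Summed over 8 heart muscle genes it was 704 FPKM in control spine, 471 in NTD spine, 48.2 in control brain and 199.6 in NTD brain.

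Against this background the 8 genes were all detected in all 4 libraries, between 1.11 and 30.1 FPKM. All 8 passed the filter of a mean of at least 1 FPKM, and each gave whole numbers of reads in every library, from 55 reads (Nfe2 in NTD spine) to 3068 reads (Tfrc in NTD brain). Tfrc, Slc4a1 and Alas2 stood highest per length and Nfe2 and Gata1 lowest. Globin transcripts, the main product of red cells, were abundant in the same libraries: the 9 globin genes in the table summed to 4472 and 4804 FPKM in control and NTD brain, and to 6964 and 3635 FPKM in control and NTD spine. In bulk tissue, fewer red cells and less RNA per red cell cannot be told apart.

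**Figure D1:**
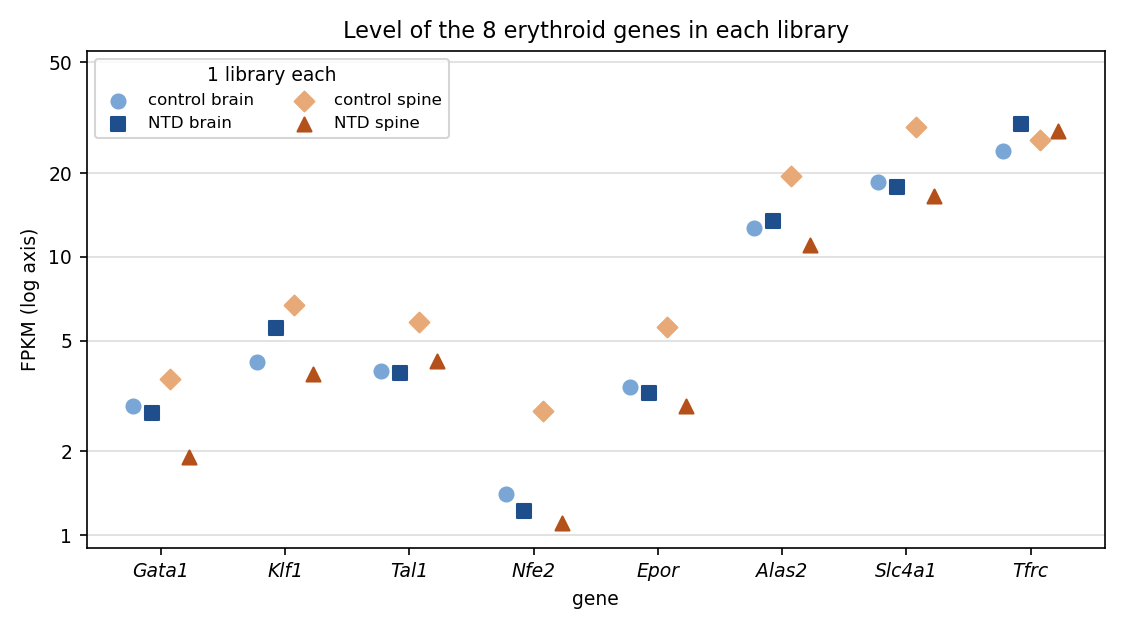
Level of each of the 8 genes in FPKM (log axis) in the 4 libraries, 1 point per library. For 7 genes the control spine point lies above the other 3, and for Tfrc the NTD brain point is highest, at 30.1 FPKM.

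Of the transcription factors, Gata1 is the founding regulator of red cell and platelet precursors and lies on the X chromosome (chrX:7959260-7978071, minus strand, GRCm38). It was measured at 2.91 and 2.74 FPKM in control and NTD brain (120 and 110 reads) and at 3.63 and 1.90 FPKM in control and NTD spine (144 and 77 reads). NTD spine was thus the low library, 1.91-fold below control spine (95% interval 1.44 to 2.55). NTD brain, the next library up, was 1.44-fold above it (1.07 to 1.95). Control spine over control brain was 1.25-fold with an interval of 0.972 to 1.60, which includes no difference.

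Klf1, the activator of the erythroid programme downstream of GATA1 (chr8:84901928-84905291, plus strand), was at 4.17 and 5.56 FPKM in control and NTD brain and at 6.71 and 3.78 FPKM in control and NTD spine. Unlike for the other 3 factors, NTD brain came second after control spine. NTD spine was 1.78-fold below control spine (1.37 to 2.31), whereas NTD brain was 1.33-fold above control brain (1.03 to 1.73). Control spine and NTD brain were not separated beyond counting error (1.21-fold, 0.959 to 1.52), nor were control brain and NTD spine (1.10-fold, 0.831 to 1.47).

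Nfe2 (chr15:103248212-103258403, minus strand) showed the widest spread of the 8. Its levels were 1.41 and 1.22 FPKM in control and NTD brain (71 and 60 reads) and 2.80 and 1.11 FPKM in control and NTD spine (136 and 55 reads). Control spine stood alone, 1.99-fold above control brain (1.48 to 2.69) and 2.52-fold above NTD spine (1.83 to 3.52). The 3 lower libraries followed each other within counting error.

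Tal1 (chr4:115056426-115071755, plus strand), a basic helix-loop-helix factor needed for all blood formation that is also made in endothelium and in some neurons of the midbrain and spinal cord, was at 3.88 and 3.83 FPKM in control and NTD brain and at 5.85 and 4.22 FPKM in control and NTD spine. Control spine was highest and the other 3 libraries were alike within counting error, with NTD spine second. The difference between the spines was 1.39-fold (1.19 to 1.61), smaller than the 1.5-fold used as the threshold. Markers of the other cells that make Tal1 were present in the same libraries: 10 endothelial genes summed to 99.5 FPKM in control spine and 99.3 in NTD spine, and 9 genes of Tal1-expressing neural lineages to 5.52 and 4.26 FPKM. Their part in the Tal1 values was not tested.

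Epor (chr9:21958897-21963506, minus strand), the receptor that keeps erythroblasts alive, was at 3.42 and 3.24 FPKM in control and NTD brain and at 5.59 and 2.91 FPKM in control and NTD spine. Control spine was 1.64-fold above the next library, control brain (1.29 to 2.08), and 1.92-fold above NTD spine (1.49 to 2.49). The brain libraries and NTD spine were not separated from their neighbours in this order beyond counting error.

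Alas2 (chrX:150547375-150570638, plus strand) was at 12.6 and 13.5 FPKM in control and NTD brain and at 19.4 and 11.1 FPKM in control and NTD spine. Its 760 reads in control spine compared with 441 in NTD spine, a difference of 1.76-fold (1.56 to 1.98). The brain libraries lay between, and differed from each other by 1.07-fold (0.943 to 1.21). Alas2 exons share 311 bases with those of Apex2, a DNA repair gene, so that reads there could have been counted for either gene. Apex2 itself was at 3.80 and 3.61 FPKM in control and NTD brain and at 3.82 and 4.19 FPKM in control and NTD spine, without the high value in control spine.

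Slc4a1 (chr11:102348824-102366203, minus strand) was the most deeply counted of the 7 genes that were highest in control spine. It stood at 18.6 and 17.9 FPKM in control and NTD brain (1540 and 1439 reads) and at 29.3 and 16.5 FPKM in control and NTD spine (2331 and 1339 reads). Control spine was 1.57-fold above control brain (1.47 to 1.68) and 1.78-fold above NTD spine (1.66 to 1.90). The other 3 libraries lay within a factor of 1.13 of each other.

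Tfrc (chr16:32608920-32632794, plus strand) departed from this order. It was at 24.0 and 30.1 FPKM in control and NTD brain and at 26.2 and 28.4 FPKM in control and NTD spine, so that both NTD libraries were above both control libraries. NTD brain was 1.25-fold above control brain (1.19 to 1.32) and NTD spine 1.08-fold above control spine (1.03 to 1.14). After adjustment for GC content and length the log2 ratio in brain was 0.22 in place of 0.31, and that in spine was 0.00086 in place of 0.11.

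Read as a group in spine, 7 of the 8 genes were lower in NTD than in control spine, as were 58.0% of compared genes. On the main scale, the log2 ratio of (FPKM + 1), 6 of the 8 (Gata1, Klf1, Nfe2, Epor, Alas2 and Slc4a1) were at least 1.5-fold lower, where 2.93% of the 12940 genes compared were. The ratios of these 6 ran from -0.67 for Gata1 to -0.85 for Nfe2, and Tal1 stood at -0.39. None of the 8 was at least 1.5-fold higher (1.45% of genes), and none was at least 2-fold lower on this scale (0.68% of genes), which understates the fold of low genes such as Nfe2. The median log2 ratio of the 8 was -0.72, and that of all compared genes was -0.04. Because the 8 genes were chosen with earlier results of these data known, their excess over these shares is a description. Globins, yolk sac genes, heart genes and platelet genes were lower in the same library, with values given below, and their part in this difference was not tested.

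In brain the same genes showed no shared direction. None of the 8 was at least 1.5-fold lower (2.56% of genes) or at least 1.5-fold higher (2.02% of genes) in NTD brain, and their median log2 ratio was -0.04 against -0.03 for all genes. Klf1 (0.34) and Tfrc (0.31) were the members above control brain beyond counting error. The intervals of the other 6 included no difference: 0.720 to 1.23 times the control level for Gata1, 0.834 to 1.17 for Tal1, 0.605 to 1.24 for Nfe2, 0.720 to 1.24 for Epor, 0.943 to 1.21 for Alas2 and 0.892 to 1.03 for Slc4a1. The interval of Slc4a1 was narrow and that of Nfe2 wide because of their read counts, and neither covers the spread between embryos.

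**Figure D2:**
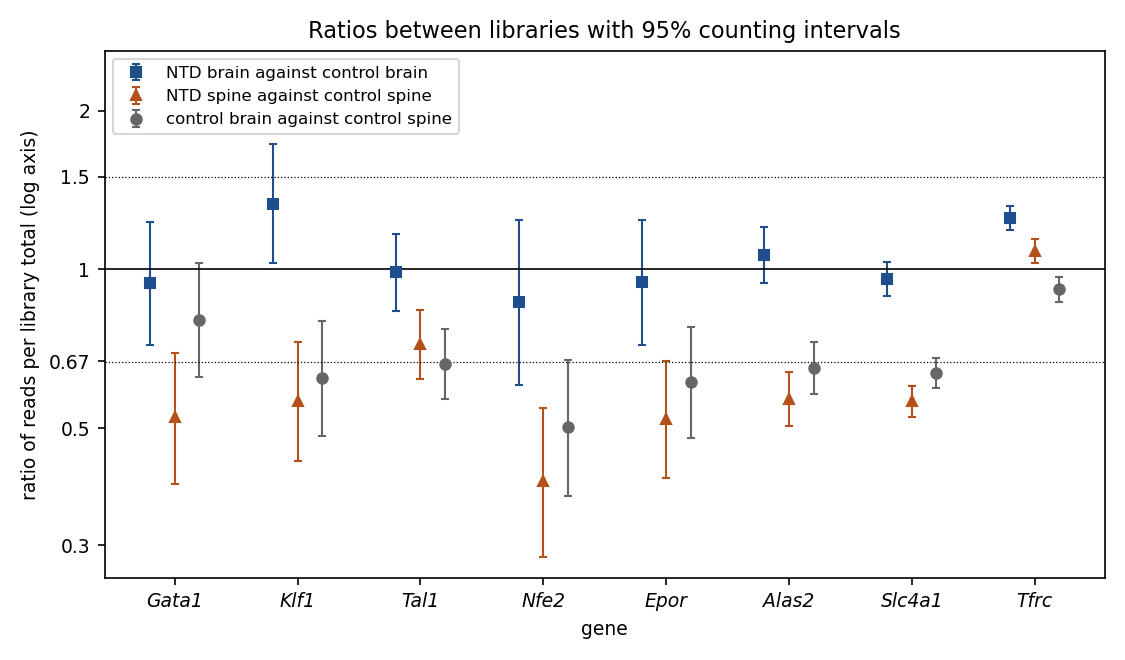
Ratio of reads per library total (log axis) for each gene in 3 comparisons, with 95% intervals for counting error, and dotted lines at 1.5-fold either way. The triangles for NTD against control spine lie below 1 for 7 genes and above it for Tfrc (1.08), while the squares for brain lie near 1 except for Klf1 (1.33) and Tfrc (1.25).

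The NTD to control ratio was lower in spine than in brain for all 8 genes, and the share of compared genes with this order is not given here. The spine ratio divided by the brain ratio was 0.423 for Klf1 (0.292 to 0.613), 0.457 for Nfe2 (0.279 to 0.747), 0.533 for Alas2 (0.449 to 0.633), 0.549 for Epor (0.376 to 0.802), 0.557 for Gata1 (0.374 to 0.827) and 0.587 for Slc4a1 (0.531 to 0.648). It was nearer to 1 for Tal1 (0.731, 0.582 to 0.917) and Tfrc (0.865, 0.802 to 0.932). Each of these intervals lay below 1, but they hold counting error alone, and the difference between the tissues has no replicate check.

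The 2 control libraries differed in the same sense. All 8 genes had the lower value in brain, as did 48.6% of compared genes, with a median log2 ratio of -0.58 against 0.01 for all genes. On the (FPKM + 1) scale 2 of the 8, Nfe2 (-0.66) and Slc4a1 (-0.63), were at least 1.5-fold lower in brain, where 5.27% of genes were, and none was at least 1.5-fold higher (2.91% of genes). Alas2, Epor and Klf1, each at -0.58, were just short of that threshold, and on recovered reads without a pseudocount 6 of the 8 passed it (7.28% of genes). In NTD embryos 7 of the 8 genes were higher in brain than in spine, by at most 1.47-fold (Klf1, 1.13 to 1.93). Tal1 was lower in brain, as were 48.7% of compared genes. None of the 8 passed 1.5-fold in either direction there (4.88% of genes lower, 3.41% higher), and the median was 0.11 against 0.01 for all genes. The comparisons with control spine share that library, and 28.5% of compared genes had their highest value in it.

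Globin transcripts served as a reference for red cell RNA inside each library; they do not separate cell number from globin RNA per cell. Globin reads were 54221 and 56568 in control and NTD brain (0.321 and 0.343% of the library) and 81390 and 43059 in control and NTD spine (0.50 and 0.259%). The embryonic globins Hbb-bh1, Hbb-y and Hba-x made up most of them, and were 1.77-fold (1.74 to 1.81), 1.98-fold (1.94 to 2.02) and 1.99-fold (1.95 to 2.04) lower in NTD than in control spine. Hba-a1, which shares sequence with a near-identical copy, was 2.08-fold lower (2.01 to 2.16). In NTD brain, Hbb-bh1 was 1.17-fold above control brain (1.15 to 1.20), Hba-x was 1.08-fold above (1.06 to 1.10), and the other pair differed by less than counting error.

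Set against globin reads of the same library, the spread of the 8 genes differed from gene to gene. Per 1000 globin reads there were 9.48 and 9.44 Alas2 reads in control and NTD brain and 9.34 and 10.2 in control and NTD spine. In the same order, the numbers were 28.4, 25.4, 28.6 and 31.1 for Slc4a1 and 2.12, 1.87, 2.22 and 2.23 for Epor. They were 2.21, 1.94, 1.77 and 1.79 for Gata1, 1.99, 2.47, 2.05 and 2.23 for Klf1, and 1.31, 1.06, 1.67 and 1.28 for Nfe2. Between the spines this ratio, NTD over control, was 1.10 for Alas2 (0.973 to 1.24), 1.003 for Epor (0.774 to 1.29), 1.01 for Gata1 (0.756 to 1.34) and 1.09 for Klf1 (0.836 to 1.41), all intervals that include 1. For Slc4a1 it was 1.09 (1.01 to 1.16) and for Nfe2 0.764 (0.548 to 1.05), whose 4 values spread more widely than those of Tal1 but rest on fewer reads. Between the brains Slc4a1 went the other way, at 0.896 (0.832 to 0.964), and Tfrc was at 1.17 (1.11 to 1.23). The brain intervals of the other 6 included 1, from 0.810 for Nfe2 (0.565 to 1.16) to 1.24 for Klf1 (0.959 to 1.61).

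The ratio of NTD over control spine was furthest from 1 for Tfrc and Tal1. Tal1 had 5.29, 4.88, 5.12 and 7.13 reads per 1000 globin reads in the same order of libraries, and the NTD spine value was 1.39 times that of control spine (1.20 to 1.62). Tfrc had 46.4, 54.2, 32.4 and 67.8, and the NTD spine value was 2.09 times that of control spine (1.98 to 2.21). Globin reads made up 0.50% of control spine and 0.259% of NTD spine, so a gene at an even level rises in this ratio by construction. Per library total, Tfrc was 1.08-fold higher in NTD than in control spine (1.03 to 1.14) and Tal1 was 1.39-fold lower (1.19 to 1.61). Both genes are also expressed outside the red cell lineage.

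**Figure D3:**
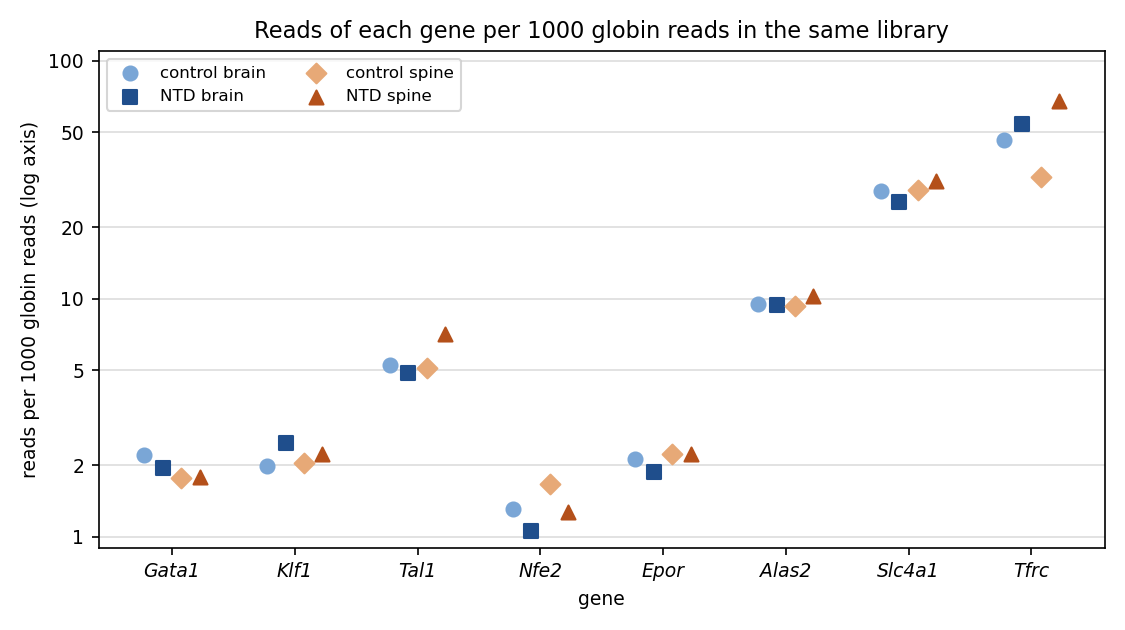
Reads of each gene per 1000 globin reads of the same library (log axis), 1 point per library. The 4 points of Alas2 lie between 9.34 and 10.2, while NTD spine, the library with the fewest globin reads, is the highest point for Tal1 (7.13) and Tfrc (67.8).

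Wider lists of the same pathways were examined next, on both scales: the log2 ratio of (FPKM + 1) and the fold of reads without a pseudocount, on which more low genes pass 1.5-fold. Of all compared genes, 58.0% were below 0 in NTD against control spine, 2.93% were at least 1.5-fold lower on the first scale and 6.2% on the second. In brain 4.72% were at least 1.5-fold lower and 3.48% higher in reads. Of 16 further genes of haem synthesis and handling, 13 were lower in NTD than in control spine, none by 1.5-fold on either scale, and their median log2 ratio was -0.29. Alad, the enzyme that follows ALAS2, was at 57.9 and 50.1 FPKM in control and NTD brain and at 64.1 and 43.6 FPKM in control and NTD spine, and was 1.47-fold lower in NTD spine (1.37 to 1.58). Tmem14c, a porphyrin carrier of the mitochondrial membrane, was 1.43-fold lower (1.31 to 1.57), and the mitochondrial iron importer Slc25a37 1.28-fold (1.21 to 1.35). Alad serves haem synthesis outside the red cell lineage as well. In NTD brain the median was 0.05, and none of the 16 passed 1.5-fold on the (FPKM + 1) scale. In reads 1 did, the porphyrin transporter gene Abcb6, with levels of 0.334 and 0.137 FPKM in control and NTD brain, a 2.43-fold lower value (1.21 to 5.22).

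Of 17 other red cell membrane and cytoskeleton genes, 16 were lower in NTD spine (58.0% of compared genes), with a median of -0.42. On the (FPKM + 1) scale 4 were at least 1.5-fold lower (Add2, Ermap, Rhd and Sptb), where 2.93% of compared genes were. In reads 10 of the 16 with whole reads were (6.2% of compared genes), among them these 4 and Ank1, Epb42, Kel and Rhag. Genes of these lists past 1.5-fold, other than Rhd, are named after their values were seen. Rhd, the Rh blood group protein, was at 1.48 and 1.10 FPKM in control and NTD brain (40 and 29 reads) and at 3.28 and 0.718 FPKM in control and NTD spine (85 and 19 reads). It was 4.57-fold lower in NTD spine (2.75 to 7.95). Car2, the carbonic anhydrase of red cells, was 1.27-fold lower in NTD spine (1.15 to 1.39) and 1.25-fold higher in NTD brain (1.15 to 1.36), where the median was 0.07 and none of the 17 passed 1.5-fold on the (FPKM + 1) scale. Add2, a spectrin-binding adducin subunit, was lower in both NTD libraries: at 2.58 and 1.50 FPKM in control and NTD brain and 2.62 and 1.32 FPKM in control and NTD spine, its reads were 1.72-fold (1.47 to 2.01) and 1.99-fold (1.69 to 2.35) lower. In NTD brain Tmod1 was 1.53-fold higher in reads (1.01 to 2.33) and Aqp1 1.50-fold (0.703 to 3.31). Cd24a, also a surface protein of neural progenitors, was the 1 gene of the list that was higher in NTD spine, at 1.02-fold (0.996 to 1.05). The haem and membrane medians were below 0 in spine under each of 3 pseudocounts and 3 rescalings, from -0.33 to -0.17 and from -0.60 to -0.17.

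The iron list held 11 measured genes, of which 7 were lower in NTD spine (58.0% of compared genes), none by 1.5-fold on the (FPKM + 1) scale (median -0.11). In reads 3 were (6.2% of compared genes): Steap3, a ferrireductase of erythroid iron uptake, by 1.74-fold (1.32 to 2.29), the second transferrin receptor gene Tfr2 by 2.64-fold (1.32 to 5.64) and Hfe by 3.27-fold (1.14 to 11.4), the last pair below 0.5 FPKM in each library. The ferritin chains Fth1 and Ftl1 were 1.29-fold (1.24 to 1.34) and 1.26-fold (1.16 to 1.37) lower there, with the limit that both have many processed copies in the genome. The RNA-binding proteins that recognise the iron-responsive elements shown above were slightly higher in NTD spine: Aco1 (iron regulatory protein 1) by 1.12-fold (1.05 to 1.19) and Ireb2 (iron regulatory protein 2) by 1.15-fold (1.08 to 1.21). Of the genes with elements, Tfrc was 1.08-fold higher in NTD spine, with a log2 ratio of 0.00086 after adjustment for GC content and length. Alas2 and Fth1 were lower there. In NTD brain Tfrc (1.25-fold) and Alas2 (1.07-fold, within counting error) were both above control brain. Fth1 was at 108 and 97.5 FPKM in control and NTD brain. Any part of the elements in these values was not tested.

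Other regulators of blood had spine medians near that of all genes. Of 19 further erythroid and haematopoietic transcription factors 12 were lower in NTD spine (58.0% of compared genes), with a median of -0.08. None was 1.5-fold lower or higher in either tissue on the (FPKM + 1) scale. In reads 3 of the 18 with whole reads were at least 1.5-fold lower in NTD spine: the GATA1 partner repressor Gfi1b by 1.72-fold (1.09 to 2.76), the lymphoid and erythroid factor Ikzf1 by 1.64-fold (1.25 to 2.15) and the globin repressor Bcl11a by 1.72-fold (1.25 to 2.38). Bcl11a was also lower in NTD brain, by 2.33-fold (1.41 to 3.97). Ldb1, the bridging protein of the GATA1 and TAL1 complex, was at 60.9 and 58.6 FPKM in control and NTD brain and at 62.9 and 56.1 FPKM in control and NTD spine, and was 1.12-fold lower in NTD spine (1.08 to 1.17). The 11 genes of erythropoietin and stem cell factor signalling had a spine median of 0.00 and none past 1.5-fold there on either scale. In NTD brain Cish and Ptpn6 passed it in reads, both lower (4.72% of compared genes were). Of the 11 genes, Bcl2l1, the survival protein induced by EPOR, was 1.20-fold lower in NTD spine (1.09 to 1.32). The kinase Pim1 was 1.19-fold higher in NTD spine (1.09 to 1.31). Most genes of these lists are widely expressed, Ldb1 included.

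**Figure D4:**
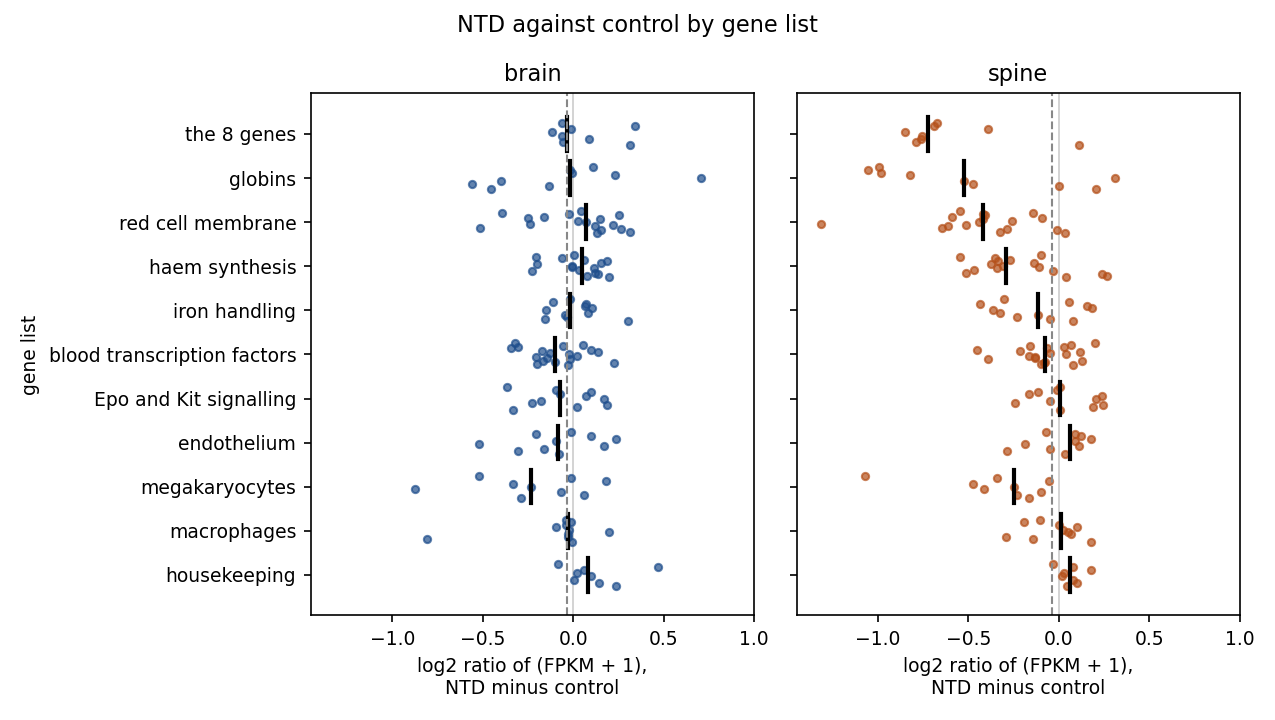
Log2 ratio of (FPKM + 1), NTD minus control, for each gene of 11 lists in brain (left) and spine (right), with black bars at list medians and a dashed line at the median of all compared genes. In spine the bars of the 8 genes (-0.72), globins (-0.53), red cell membrane (-0.42) and haem synthesis (-0.29) lie left of that line. So do those of megakaryocytes (-0.25), iron handling (-0.11) and blood transcription factors (-0.08). The bars of endothelium (0.06), macrophages (0.01), housekeeping genes (0.06) and Epo and Kit signalling (0.004) do not. The yolk sac and heart muscle lists are not drawn, and their spine medians were -1.32 and -0.59.

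Markers of the other blood and tissue cells were measured beside these genes. Megakaryocytes and platelets, which also use GATA1, TAL1 and NFE2, were present at a low level: their 9 measured markers summed to 12.8 and 8.49 FPKM in control and NTD brain and to 12.5 and 5.81 FPKM in control and NTD spine. All 9 were lower in NTD spine, among them Pf4 by 2.45-fold (1.66 to 3.71), and Treml1 was listed at 0 there. The 10 macrophage markers summed to 10.2 and 10.1 FPKM in control and NTD brain and to 8.22 and 8.21 FPKM in control and NTD spine, mostly Cd68, with Fcgr1 listed at 0 in control spine. The 4 measured mast cell and eosinophil markers summed to at most 0.303 FPKM, with Ms4a2 and Prg2 listed at 0 in both brain libraries. All 6 yolk sac endoderm and gut genes were at least 2-fold lower in NTD spine, and all 8 heart muscle genes were lower, 4 of them by at least 1.5-fold. Of all compared genes, 58.0% were lower in NTD spine, 2.93% by at least 1.5-fold and 0.68% by at least 2-fold. In NTD brain all 8 heart genes were at least 1.5-fold higher than in control brain (2.02% of compared genes) while the 8 erythroid genes were not. The part of platelet, yolk sac or heart tissue in the values of the 8 genes was not tested.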

How the data were processed

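The authors deposited FPKM values per gene for the 4 libraries in 1 table, after alignment with HISAT2 2.0.1 to mm10, per the submitters' processing notes. For the counting program, annotation and strand setting nothing was given in the sources used here. Of 28765 identifiers, 28698 matched GENCODE M21. FPKM multiplied by summed exon length gave whole reads (tolerance 0.01 reads) in all 4 libraries for 28298 genes, and hence the library totals. The 12940 genes whose mean reached 1 FPKM were compared on log2(FPKM + 1), with 1.5-fold as the threshold. Each fold divides the recovered reads per library total, with exact conditional binomial 95% intervals, and the division of folds used exact odds-ratio intervals. Intervals were checked on simulated data. Tools were Python 3.11.15, pandas 2.3.3 and scipy 1.17.1. The 8 genes and all lists were chosen with earlier results of these data known. From each list up to 4 genes of highest mean FPKM were named, plus any past 2-fold where at most 5 were, and some listed genes are not reported here.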

Additional observations from a re-analysis of the deposited data

Results flagged for a closer look

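Klf1 and Alas2 stood out because their NTD to control fold pointed in opposite directions in the 2 tissues. For Klf1 the fold was 1.331 in brain and 0.5633 in spine. For Alas2 it was 1.067 in brain, with an interval that includes 1, and 0.5686 in spine. With 1 library per group the difference between tissues was not tested against replicate spread.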

How the results depend on the processing

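In NTD against control spine the median log2 ratio of the 8 genes was -0.72 and became -0.38 with a pseudocount of 5. The number at least 1.5-fold lower was 6, and became 2 with a pseudocount of 5, 0 at a 2-fold and 0 at a 4-fold threshold. In control brain against control spine that number was 2. It became 5 with a pseudocount of 0.1, 0 with a pseudocount of 5, 5 after scaling to the same FPKM sum, 1 after adjustment for GC content and length, 6 on recovered reads, 0 at 2-fold and 0 at 4-fold. The share of all compared genes at least 1.5-fold lower in NTD spine, 2.93%, ran from 0.0386% at the 4-fold threshold to 6.20% on recovered reads. This share was 0.77% at pseudocount 5 and 0.68% at the 2-fold threshold. For control brain against control spine, 5.27% of compared genes were at least 1.5-fold lower. That share was 7.33% at pseudocount 0.1, 2.14% at pseudocount 5 and 5.44% with the same FPKM sum. After GC and length adjustment it was 4.97%, on recovered reads 7.28%, at 2-fold 2.38% and at 4-fold 0.966%. None of the 8 genes changed sign in spine under the alternatives run. In brain Tal1 changed sign under median scaling and GC adjustment, and Epor and Slc4a1 under GC adjustment, while Tfrc in NTD brain against NTD spine went from 0.08 to -0.02 with the same FPKM sum. The median of the 8 genes in NTD against control brain also changed sign, from -0.04 to 0.04, after adjustment for GC content and length. The other ratios and medians of the 8 genes kept their direction. The cause of these changes was not tested, apart from the pseudocount and threshold, which shrink or exclude low genes by construction. No paired analysis was possible because the groups compared within a tissue hold 1 library and 1 replicate number each, and for the same reason no replicate could be left out. A fit over both tissues with tissue as a block, which would have 1 residual degree of freedom, was not run. The main limits are the single libraries, unknown numbers of embryos, the depth of 55 to 181 reads for Gata1, Klf1, Nfe2 and Epor, and blood that cannot be counted apart from tissue.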

Other observations

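Genes with the most similar profile over the 4 libraries were sought among 7116 named coding genes averaging 5 FPKM or more, by the root mean square distance of centred log2(FPKM + 1) values. Slc4a1 was nearest to Epor (0.0195) and to Nfe2 (0.0335), and the embryonic globin Hbb-bh1 was nearest to Klf1 (0.0639) and Alas2 (0.0654). The secreted protein gene C1qtnf12, at 9.65 and 8.80 FPKM in control and NTD brain and 14.4 and 8.33 FPKM in control and NTD spine, was nearest to Slc4a1 (0.0350). Gata1 was nearest to Apoe (0.0407) and Tal1 to Tnip1 (0.0258). Tfrc was nearest to Ufsp2 (0.00824), followed by Usp14, Slc35a1, Ubxn2a and Nup88, none of them in the blood lists. With 4 libraries many genes share a profile, and these distances are a description.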
